A study of Mus musculus with 3 samples.

Results

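A20 and the ubiquitin regulators of Toll-like receptor signalling were followed through a lipopolysaccharide (LPS) response in RAW264.7 cells, a transformed mouse macrophage line. The group was set by gene name and not by a cut on measured values, but with earlier results of these data known. It holds 9 genes: the inhibitors Tnfaip3, Tnip1 and Cyld, the ubiquitin ligases Peli1, Birc2, Birc3, Traf3 and Traf6, and the adaptor Tifa. Of these, 7 genes were read by 11 probe sets annotated to them alone, out of 12393 genes and 22690 probe sets in all. Cyld and Traf3 had no such probe set and their expression was not analysed here. Expression was measured on 1-colour arrays at 0, 2 and 12 h of LPS, the glycolipid of Gram-negative outer membranes. Each time was 1 array of total RNA from the one line, with no replicate, no untreated array at 2 or 12 h, and an LPS dose not given in the sources used here. Hours in culture and LPS thus cannot be told apart, and no test of the conditions could be made.

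Toll-like receptor 4 senses LPS and, through the adaptor MyD88 and IRAK kinases, engages TRAF6, a ligase that builds ubiquitin chains on which the TAK1 and IkB kinase complexes assemble. These kinases free NF-kB to enter the nucleus. A20, the protein of Tnfaip3, and its binding partner ABIN1, the protein of Tnip1, restrain the pathway at the ubiquitin chains, and both genes are well-known NF-kB targets, so that they form a feedback loop. CYLD removes chains, Pellino-1 (Peli1) and the cellular inhibitors of apoptosis (Birc2, Birc3) add them, TRAF3 steers signalling towards interferon genes, and TIFA carries a forkhead-associated domain and binds TRAF6.

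The promoters of the A20 group are shown first, because kappaB elements, the DNA sites of NF-kB, are the known route by which several of these genes respond. RefSeq promoter windows (build GRCm38.p6, 250 bases before to 50 after an annotated start) were found for all 9 genes, with 12 starts between them. The 250 bases upstream of a start are given below, 5′ to 3′ on the gene's strand, for the 4 genes whose 2 h signal was at least 2-fold over that at 0 h, and capitals mark matches to the kappaB consensus on either strand. The Tnfaip3 stretch, at the first of 2 listed starts, is chr10:19015411-19015660 (minus strand), that of Tnip1 is chr11:54962941-54963190 (minus strand), that of Peli1 is chr11:21091074-21091323 (plus strand) and that of Birc3 is chr9:7873171-7873420 (minus strand).
Tnfaip3: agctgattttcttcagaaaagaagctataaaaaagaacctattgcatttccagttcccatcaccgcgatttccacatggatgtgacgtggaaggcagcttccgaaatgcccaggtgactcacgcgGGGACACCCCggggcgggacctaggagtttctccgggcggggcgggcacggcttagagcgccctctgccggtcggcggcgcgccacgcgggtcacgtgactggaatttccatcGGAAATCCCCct
Tnip1: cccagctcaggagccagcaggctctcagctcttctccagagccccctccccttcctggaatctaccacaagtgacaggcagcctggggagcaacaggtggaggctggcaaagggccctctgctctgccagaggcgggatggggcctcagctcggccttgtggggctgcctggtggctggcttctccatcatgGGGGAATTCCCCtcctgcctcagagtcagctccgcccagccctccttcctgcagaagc
Peli1: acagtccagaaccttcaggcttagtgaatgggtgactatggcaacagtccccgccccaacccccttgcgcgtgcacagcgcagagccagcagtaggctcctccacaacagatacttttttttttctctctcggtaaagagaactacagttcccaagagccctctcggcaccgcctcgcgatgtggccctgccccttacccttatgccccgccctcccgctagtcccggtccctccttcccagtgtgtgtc
Birc3: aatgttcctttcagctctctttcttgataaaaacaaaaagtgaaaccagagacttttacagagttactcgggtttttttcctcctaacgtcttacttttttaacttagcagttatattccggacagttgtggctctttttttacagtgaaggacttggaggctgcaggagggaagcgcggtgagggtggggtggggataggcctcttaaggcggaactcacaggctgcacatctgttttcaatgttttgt

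The Tnfaip3 window held 2 kappaB consensus matches, at bases -125 to -116 and -12 to -3 from the start. In Tnip1, 4 overlapping matches on the 2 strands covered 1 palindromic stretch from -58 to -47. The Peli1 and Birc3 windows held none, which says only that these letters are not in this stretch. Among the other members, Cyld had a match at -155 to -146, Traf3 at -10 to -1, and Tifa at 34 to 43 past the second of its 2 starts, where the bases read GGGATTTTCC; Birc2 and Traf6 had none. The second Tnfaip3 start and the first Tifa start held none. In all, 5 of 9 member genes held a match, against 5.14% of the 27025 genes with a window in the table. By starts, 5 of 12 held a match, against 4.51% of 32851. A looser form on either strand fixes only the opening 3 G and closing 2 C of the 10 bases, and every consensus match also satisfies it. It was found in 8 of 9 member genes, against 53.5% of all genes. By starts it was found at 9 of the 12 member starts and at 50.8% of all starts. The letters TATAAA, on either strand, occurred in 2 member genes, Tnfaip3 and Tifa, and in 15.7% of all genes. A match is a description of the sequence, and binding was not measured.

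**Figure D1:**
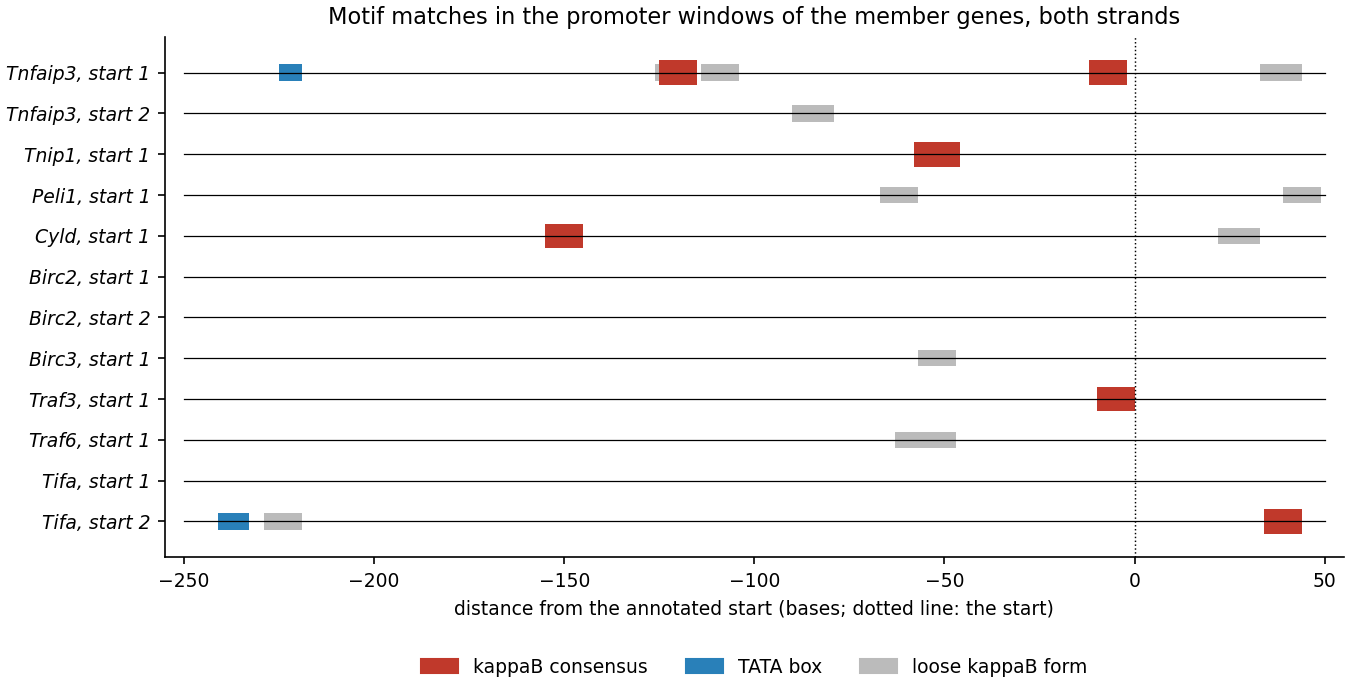
Motif matches in the 12 promoter windows of the 9 member genes, by distance in bases from the annotated start (dotted line); red blocks are kappaB consensus matches, blue TATAAA, grey the looser kappaB form. Red blocks stand in 5 of the genes, close upstream of the start in Tnfaip3, Tnip1 and Traf3 and past the start in Tifa.

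At 2 h of LPS the restraining genes Tnfaip3 and Tnip1 and the ligase genes Peli1 and Birc3 were higher than before treatment, and the adaptor Tifa was lower. Signals are linear and scaled to one trimmed mean per array. For a difference, signals under a floor of 34.96 were raised to it. A gene counts as measured in a comparison when at least 1 of its 2 signals reaches the floor. It is called when its floored signals on the 2 arrays differ at least 2-fold. By that rule 4 of the 7 measured members were higher at 2 h and 1 was lower, and the median log2 difference was 1.63. Of all 8413 genes measured in this comparison, 3.77% were called, 2.09% higher and 1.68% lower (176 and 141 genes, or 224 and 72 with arrays set to one median), and the median was -0.10. The precision is limited by the number of arrays. The only error they hold is the spread among probe sets of one gene, an SD of 0.32 (log2) for the 2 h difference from 0 h, 0.34 for the one at 12 h and 0.31 between the LPS arrays, which leaves out the error between cultures.

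Tnfaip3, the A20 gene, read 60.2 before LPS, 409 after 2 h and 68.1 after 12 h. It was high on the 2 h array alone, where it was 6.78-fold above 0 h, a log2 difference of 2.76, and 31 genes had a larger one. At 12 h it was 1.13-fold above 0 h, a log2 difference of 0.18 that is smaller than the SD among probe sets, so that 2.26% of the 2 h gain in signal was left. Between 2 and 12 h its log2 difference was -2.59, and 8 of 8457 genes had a larger decrease. Both counts are over floored signals, where the difference of a gene under the floor on 1 array is cut short. The single Tnfaip3 probe set gives no second reading of the gene. With the floor at the 60th percentile, a signal of 84.64, its 0 h and 12 h signals both lie under the floor. In bulk RNA, fewer cells carrying a transcript and less of it per cell cannot be told apart, here and for every member.

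Tnip1, whose ABIN1 protein binds ubiquitin chains and recruits A20, was read by 1 probe set, with signals of 422.5, 1596 and 1198 at the 3 times. Both LPS arrays were high, unlike for Tnfaip3. The gene was 3.78-fold above 0 h at 2 h (log2 1.92) and 2.83-fold at 12 h (log2 1.503), which leaves 66.1% of the 2 h gain. From 2 to 12 h it was 1.33-fold lower, a log2 difference of -0.41 against an SD of 0.31. It was the one member at least 2-fold above 0 h at both times by its brightest probe set. Of the 4 members called higher at 2 h, the pair with kappaB matches in the windows shown above, Tnfaip3 and Tnip1, had the smallest and the largest share of that gain left at 12 h.

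Peli1 encodes Pellino-1, a ligase that acts on IRAK1 and RIPK1. Its brightest probe set read 95.4, 540 and 172 at the 3 times, and the other read 71.2, 476 and 143. The 2 probe sets had the same order of times, highest at 2 h and lowest at 0 h. The 2 h signal was 5.66-fold and 6.68-fold above 0 h, log2 differences of 2.50 and 2.74 that lie within 1 SD of each other. At 12 h they were 1.81-fold and 2.01-fold above 0 h, one on each side of the 2-fold threshold, so the 12 h level was above 0 h by more than the SD but its call depends on the probe set. From 2 to 12 h Peli1 was 3.13-fold lower by the brightest probe set and 3.32-fold by the other.

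Birc2 and Birc3 encode cIAP1 and cIAP2, paralogous ligases that modify RIPK1 and, with TRAF2 and TRAF3, hold the kinase NIK down. Birc3 read 177, 547 and 273 by its brightest probe set, 3.09-fold above 0 h at 2 h (log2 1.63) and 1.54-fold at 12 h (log2 0.63). Its decrease from 2 to 12 h, a log2 difference of -0.9999, stood at the 2-fold threshold without reaching it. The difference was -1.0032 with the deposited values and -1.10 with arrays set to one median, past the threshold in both. The second Birc3 probe set read 1.80, 27 and 29.8, under the floor on all 3 arrays, and has no fold. Birc2 read 113, 199.9 and 113, high at 2 h alone. It was 1.77-fold above 0 h at 2 h (log2 0.82), under the threshold but above the SD among probe sets, and at 12 h its log2 difference was 0.0049. Both paralogs were highest at 2 h. Whether the probes of one also read the other was not tested.

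Traf6, the ligase that acts directly under MyD88 and the IRAKs, had the smallest difference of the 7 members at 2 h against 0 h and between 2 and 12 h, while at 12 h against 0 h Birc2 and Tnfaip3 had smaller ones. Its brightest probe set read 92.7, 113 and 105 at 0, 2 and 12 h, log2 differences from 0 h of 0.29 and 0.18 that are both under the SD among probe sets. The other 2 probe sets read 18.1, 32.9 and 28.4 and 21.5, 16.8 and 23.1, all under the floor. The values at the 3 times thus did not differ beyond the spread that these arrays show between probe sets.

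Tifa, the TRAF6-binding adaptor, was the one member below its 0 h level. Its single probe set read 136 before LPS, 41.6 after 2 h and 67.5 after 12 h, so that 0 h was high and both LPS arrays were low. At 2 h it was 3.27-fold lower (log2 -1.71), and 7 of 8413 genes had a larger decrease in floored signals. That count is limited by the floor, which cuts short the decrease of a gene that falls under it. At 12 h Tifa was 2.01-fold lower (log2 -1.01), at the threshold, and 72.5% of the 2 h loss in signal was still present. The 2 h signal lies just above the floor: with the floor at the 60th percentile, a signal of 84.64, both LPS arrays are under it and the log2 difference is only a bound, -0.68 at either time. Its log2 difference at 12 h was between -0.68 and -1.01 under the alternatives tried, so the 12 h call is not secure.

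**Figure D2:**
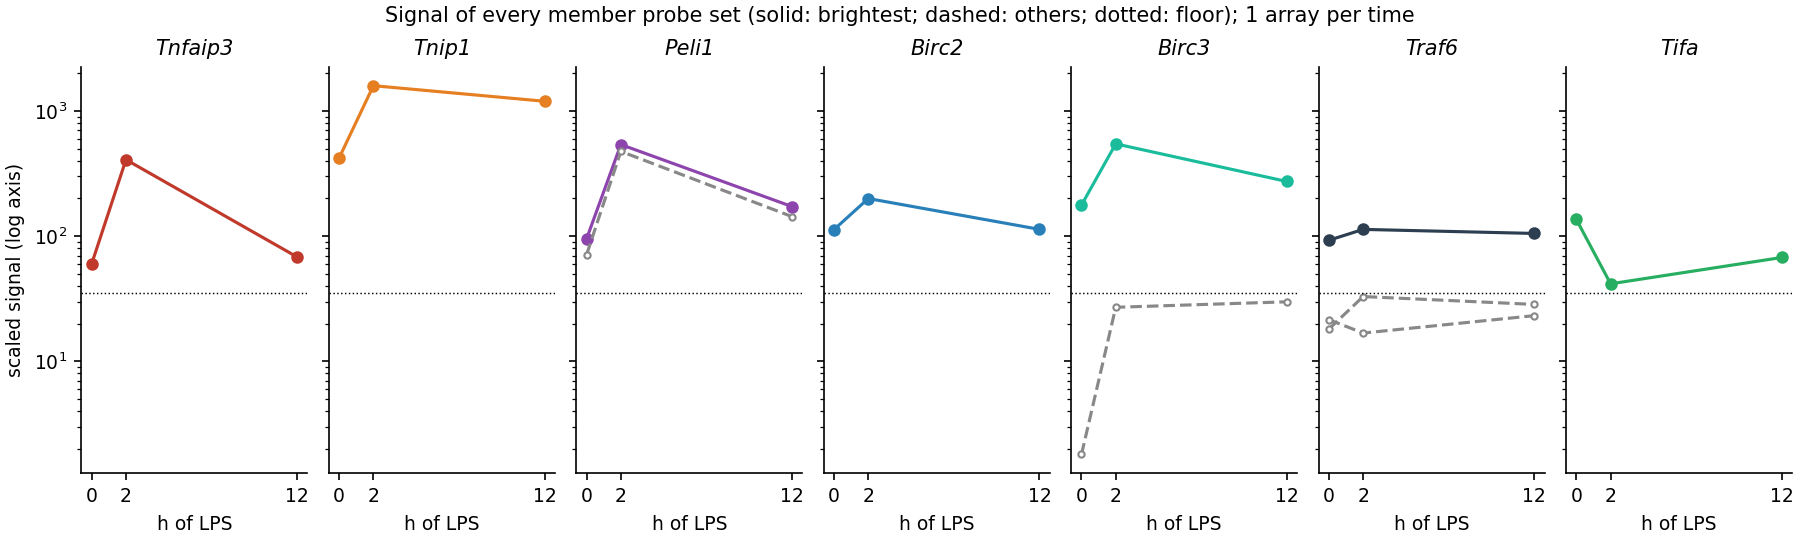
Scaled signal (log axis) of the 11 probe sets of the 7 measured members against hours of LPS, 1 array per time; solid lines are the brightest probe set of each gene, dashed lines the others, the dotted line the floor of 34.96. Tnfaip3, Peli1, Birc2 and Birc3 peak at 2 h, Tnip1 is still at 1198 at 12 h, and Tifa is lowest at 2 h.

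After 12 h fewer members stood apart from their starting level. Tnip1 was called higher than at 0 h and Tifa lower, 1 of 7 members each, with a median log2 difference of 0.18. Over 8619 measured genes 5.4% were called, 3.0% higher and 2.39% lower, and the median was -0.05. Tnfaip3, Birc2 and Traf6 were within the SD among probe sets of their 0 h values, and Peli1 and Birc3 lay above it. Between 2 and 12 h, Tnfaip3 and Peli1 were called lower and no member higher, with a median of -0.82. In that comparison 4.62% of 8457 genes were called, 1.97% lower and 2.65% higher (167 and 224 genes, or 225 and 178 with arrays set to one median). Tifa was 1.62-fold higher at 12 h than at 2 h, a log2 difference of 0.70. The comparisons share arrays, so a low 2 h reading would raise one and lower another, and they do not support each other.

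**Figure D3:**
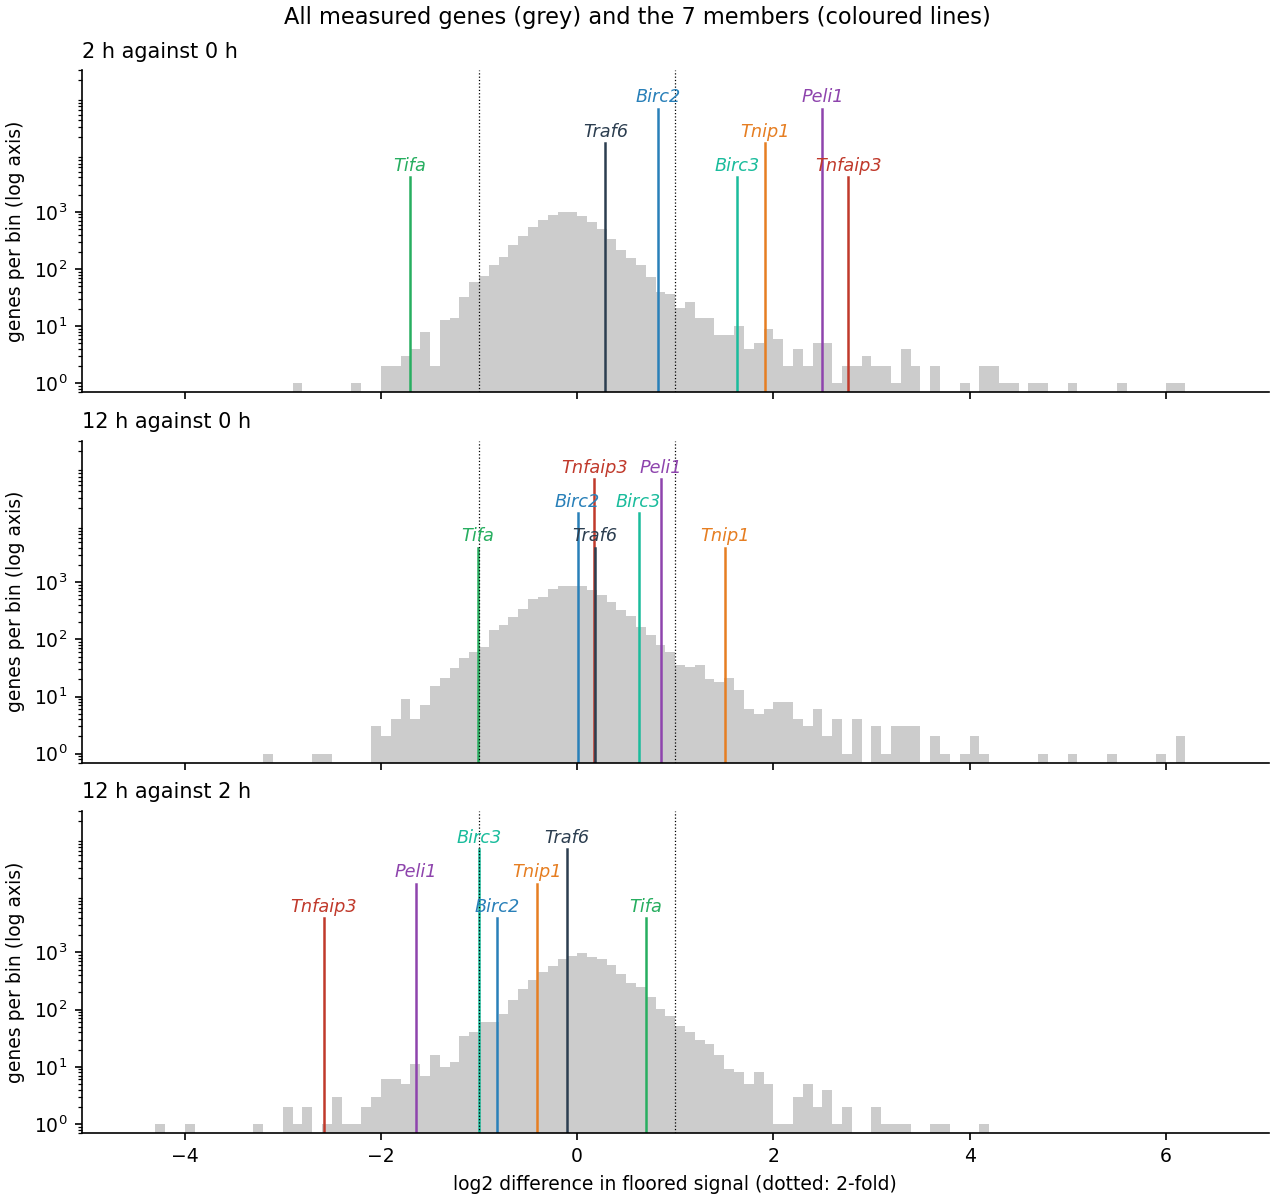
Log2 differences of all measured genes (grey bars, counts on a log axis) for the 3 comparisons, with the 7 members as coloured lines and 2-fold as dotted lines. At 2 h against 0 h Tnfaip3 (2.76), Peli1 (2.50), Tnip1 (1.92) and Birc3 (1.63) stand in the upper tail and Tifa (-1.71) in the lower; at 12 h against 0 h Tnip1 (1.503) and Tifa (-1.01) lie past the dotted lines.

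Further genes of the same pathway were read from 4 lists. Of their 71 genes, 52 were on the array, and of the 49 measured at 2 h, 3 were called higher and 1 lower, beside 3.77% of all measured genes called in either direction, with a median log2 difference of 0.01. Of the 8 measured genes of ubiquitin chain assembly 0 were called in the 3 comparisons, a count too small to set apart from the shares of 3.77% to 5.4% over all genes, and their medians were 0.11 at 2 h and 0.23 at 12 h against 0 h. The list ran at 2 h from Ube2d2a at -0.26 to Ube2d3, another E2 enzyme gene, at 0.76. The E2 gene Ube2n, whose product makes the chains of TRAF6, had signals of 482, 582 and 617, and the linear chain ligase subunit gene Sharpin 272, 289 and 252.

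Among 17 measured deubiquitinases and A20 partners, Rnf11 and Usp2 were called at 2 h, and the median was -0.06. Rnf11, which encodes a ring finger subunit of the A20 complex, read 159.8, 346 and 294 at 0, 2 and 12 h. It was 2.17-fold above 0 h at 2 h, and a second probe set had a log2 difference of 1.08 next to 1.12 for the first. At 12 h against 0 h the first gave 0.88 and the second 1.22, on either side of the 2-fold threshold, and the remaining probe set was under the floor on all arrays. Usp2, a deubiquitinase gene, read 261, 88.8 and 89.1, and was 2.94-fold lower at 2 h and 2.93-fold lower at 12 h. Its second probe set gave log2 differences of -1.44 and -1.31, so both readings put Usp2 low on both LPS arrays. The signals of that second probe set at 2 and 12 h, 35.8 and 39.2, lay just above the floor. The A20 partners Tax1bp1 (307, 326 and 324) and Itch (132, 117 and 136) and the linear chain deubiquitinase gene Otulin (281, 269 and 312) differed from 0 h by less than the SD among probe sets.

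In the list of other TRAF, IAP, Pellino and E3 genes, Traf1 had the largest difference. Traf1 encodes an adaptor without ligase activity that binds TRAF2 and the cIAPs. Its signals were 14.2, 552 and 213, the first under the floor, so it was at least 15.8-fold higher at 2 h and at least 6.09-fold at 12 h, and between them it was 2.59-fold lower. Trim30a, an interferon-inducible TRIM gene, read 200.1, 163 and 567 and was 2.83-fold above 0 h at 12 h and 3.48-fold above 2 h, against a log2 difference of -0.30 at 2 h. Its second probe set gave log2 differences of 1.16 and 1.34 for 12 h against 0 h and against 2 h. Xiap (493, 472 and 505), Tank (176, 171 and 176) and Traf2 (89.8, 116 and 115) were not called at any time. This list had medians of 0.10 in 11 measured genes at 2 h and 0.39 in 12 at 12 h.

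Of 13 measured adaptors and kinases that act on or through the chains, Ikbke alone was called. It encodes IKK epsilon, an inducible IkB kinase relative, and read 86.4, 485 and 346, which is 5.62-fold above 0 h at 2 h, with a log2 difference of 2.002 at 12 h. The lowest was Map3k14, the gene of NIK, at 202, 108 and 129.7, with log2 differences of -0.90 and -0.64. Map3k8 read 7.39, 47.6 and 50.3, the first under the floor. It was thus at least 1.36-fold higher at 2 h and at least 1.44-fold at 12 h, bounds set by the floor that do not exclude a call. Myd88 (471, 421 and 503), Map3k7, the TAK1 gene (157, 175 and 178), and Ikbkg, the NEMO gene (155, 178 and 159.5), differed from 0 h by less than the SD among probe sets. The medians of this list were 0.09 at 2 h and 0.10 at 12 h.

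**Figure D4:**
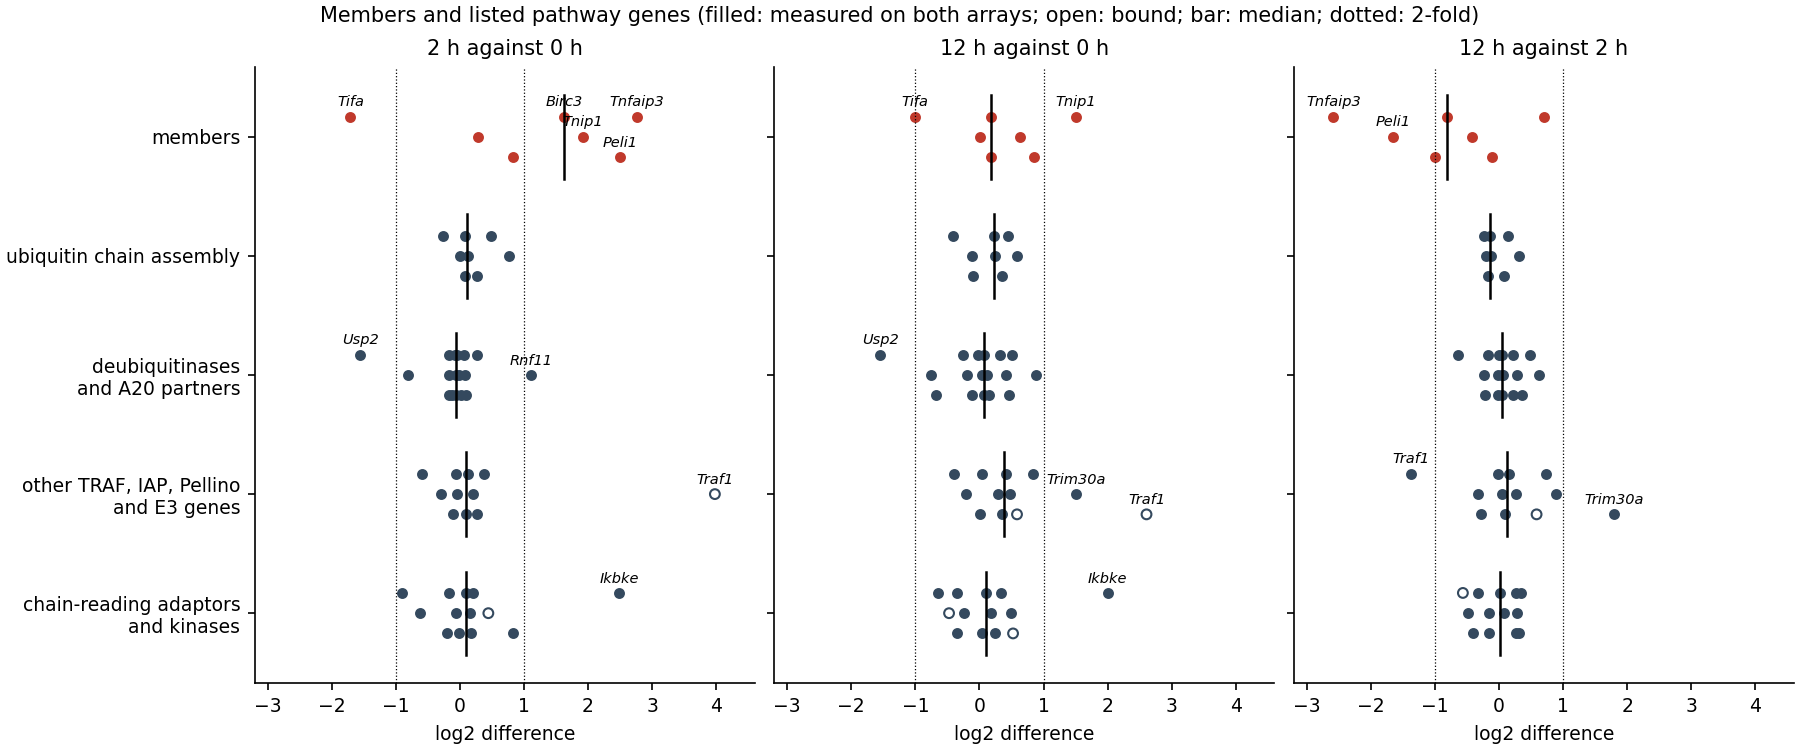
Log2 differences of the 7 members (red) and the genes of 4 pathway lists (dark) in the 3 comparisons; filled points were measured on both arrays, open points are bounds, bars are list medians and dotted lines mark 2-fold. At 2 h the member median is 1.63 and the list medians lie between -0.06 and 0.11, with Traf1, Ikbke, Rnf11 and Usp2 outside the dotted lines.

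Genes most like Tnfaip3 and Tifa over the 3 arrays were sought by the distance between their pairs of log2 differences from 0 h, among 7325 other genes above the floor on all arrays. Nearest to Tnfaip3 were Tnfsf9, the gene of 4-1BB ligand, at a distance of 0.33 with signals of 64.2, 378 and 86.9, and Pdgfb, a growth factor gene, at 0.34. The co-chaperone gene Dnajb4 followed at 0.37, the fatty acid receptor gene Gpr84 at 0.48 with signals of 509, 2974 and 775, and Dusp1, a MAP kinase phosphatase gene, at 0.60. All 5 were highest at 2 h. At 12 h their log2 differences from 0 h ran from 0.18 for Dusp1 to 0.61 for Gpr84, and those of Tnfsf9, Dnajb4 and Gpr84 were beyond the SD among probe sets. Nearest to Tifa were Rmi1, a genome stability gene, at 0.22 (177, 59.6 and 99.1), and Fos, the AP-1 subunit gene, at 0.32 (938, 293.5 and 582), then Blk, Rasd2 and Syt8 at 0.34 to 0.43. The 2 h signals of Blk, Rasd2 and Syt8 were 35.1, 38.2 and 36.5, just above the floor of 34.96, as was that of Tifa at 41.6. With 3 arrays the match rests on 2 numbers per gene.

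The arrays carried an LPS response and a macrophage profile. Tnf read 184, 3346 and 1343 and Nfkbia 2061, 5705 and 4195 at 0, 2 and 12 h, and Actb, a housekeeping gene, 5161, 5824 and 5904. Of 10 macrophage markers 9 were above the floor on all arrays, with a summed signal between 19748 and 21962; Mrc1 was under it, and Adgre1, Itgam and Fcgr1 were called higher at 12 h than at 0 h. All 5 T cell markers on the array were under the floor on every array (summed signal 64.6 to 91.1), as were 3 of 4 B cell, 4 of 5 fibroblast and 4 of 5 epithelial markers. The exceptions were Ms4a1 at 54.6 on the 12 h array alone, Col1a2 at 38.6 to 64.5 and Krt8 at 52.8 to 67.0. The part of these signals in the results was not tested.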

How the data were processed

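The deposited table holds the authors' intensity values, linear and positive, of 22690 probe sets on 3 arrays (64 controls); per the labels, 5 µg of total RNA was used. How signals were summarised and normalized is not given in the sources used here, and detection calls were not used. The deposited trimmed mean (2% from each end) was 150.05 on each array. Non-control values were rescaled to one trimmed mean, a change of at most 0.16%, floored at the 40th percentile (34.96) and put on the log2 scale. A gene was read by its brightest probe set with 1 annotated gene (20393 probe sets; 691 had several genes and 1606 none), named through RefSeq (20364 matched). A signal under the floor on 1 array gives a bound, and under it on both arrays no fold. With 1 array per time no test or p-value was computed.

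Named genes were all members, pathway genes called or extreme in a list or given as examples, the 5 nearest patterns and checks. Members, lists and settings were chosen with earlier results of these data known, and examples after their values were seen. Alternatives were the deposited values, quantile normalization, scaling to one median, a pseudocount of 16, a floor at the 20th or the 60th percentile, the median over probe sets, probe sets without a suffix (such as _a_at), and folds of 1.5 and 3. The counting was tested on simulated data, with folds set only in genes well above the floor at 0 h, so that test does not cover genes near the floor. Protein sequences were not used here. Python 3.11.15, numpy 2.4.6 and pandas 2.3.3 were used.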

Additional observations from a re-analysis of the deposited data

How the results depend on the processing

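Under other scaling, floors or probe sets many of the 157 log2 differences of members could not move. The 20th percentile floor alters no member, and most have 1 usable probe set. All 157 kept their sign, and 154 moved by less than the SD among probe sets. The other 3 came with the floor at the 60th percentile: Tnfaip3 was at 2.27 from 0 to 2 h and -2.27 from 2 to 12 h, and Tifa at -0.68 from 0 to 2 h. At 2 h against 0 h, 2 members in place of 5 were called without suffixed probe sets. Tnip1 and Tifa have no other, and that of Birc3 is under the floor. Their suffix, _a_at, usually marks probes shared by transcripts of one gene, not by different genes. At 12 h against 0 h, 2 members were called as reported, 4 at 1.5-fold and 0 at 3-fold. With median scaling, quantile normalization, the 60th percentile floor or a pseudocount 1 was called (Tnip1 in each). Without suffixed probe sets 0 of 4 measured members were called. At 12 h against 2 h, 5 members were called at 1.5-fold in place of 2. With the deposited values or median scaling 3 were called at 2-fold, Birc3 among them. Of 49, 50 and 50 measured pathway genes, 10, 11 and 7 were called at 1.5-fold in the 3 comparisons (2 h against 0 h, 12 h against 0 h, 12 h against 2 h) and 2, 2 and 1 at 3-fold, in place of 4, 4 and 2. Over all genes 5.59%, 8.27% and 10.1% were called higher at 1.5-fold, and 9.63%, 10.3% and 6.44% lower. At 3-fold 1.03%, 1.16% and 0.65% were higher, and 0.155%, 0.313% and 0.568% lower. With the floor at the 20th percentile or a pseudocount, 5, 6 and 3 pathway genes were called. That floor gave 3.23%, 4.96% and 5.53% of all genes higher, and 4.7%, 4.5% and 3.16% lower. The pseudocount gave 1.69%, 2.61% and 2.13% of all genes higher, and 1.24%, 1.73% and 1.38% lower. Without suffixed probe sets 1 of 37 measured pathway genes was called at 12 h against 2 h, beside 2.73% of all genes higher and 2.03% lower.

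Over all genes, higher and lower calls at 2 h against 0 h were 349 and 507 under a 20th percentile floor, 131 and 51 under a 60th percentile floor, 199 and 85 under quantile normalization, 470 and 810 at 1.5-fold and 87 and 13 at 3-fold. With median scaling, lower calls were 72 and the median log2 difference was 0.03 in place of -0.10. At 12 h against 0 h, where 259 and 206 were called, they were 543 and 492, 170 and 113, 713 and 891, and 100 and 27 for the 2 floors and 2 folds, and at 12 h against 2 h 601 and 343, 124 and 111, 857 and 545, and 55 and 48. The cause was not tested. Signals near the floor, as for Tifa at 2 h, limit what can be read. With 1 array per time no paired analysis was possible.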
